A study of Mus musculus with 6 samples.

Results

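The transcripts described here are those of the translation initiation factors eIF1 to eIF6 and the elongation factors eEF1 and eEF2, with the proteins that bind, phosphorylate or methylate them. They were chosen by gene symbol alone, as rows of the deposited count table that start with Eif1 to Eif6, Eef1 or Eef2. The eIF2 alpha kinases and Eef1e1, which encodes a component of the aminoacyl-tRNA synthetase complex, were left out. This gave 63 of 16519 genes. RNA came from mouse bone marrow derived macrophages, which are macrophages grown from marrow cells in culture. The KO group held 3 libraries of the genotype Trmt61a f/f with LysmCre, and the WT group held 3 libraries of Trmt61a f/f without Cre. Both groups carried the floxed allele, and loss of Trmt61a and presence of Cre cannot be told apart. LysM-Cre is expressed from the Lyz2 gene, which is active in macrophages, neutrophils and their precursors. The labels give no age or stimulus, and it is not stated whether libraries of a genotype are separate mice or cultures, so the spread that the p-values measure may be technical.

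Translation starts when eIF2 brings the initiator methionyl-tRNA to the small ribosomal subunit, helped by eIF1, eIF1A and the many-subunit scaffold eIF3. The cap-binding complex eIF4F then recruits the messenger RNA, eIF5 and eIF5B act in release of eIF2 and joining of the large subunit, and eEF1A and eEF2 carry out each step of elongation. Trmt61a encodes the catalytic part of the methyltransferase that places N1-methyladenosine (m1A) in tRNAs. In the yeast Saccharomyces cerevisiae the corresponding enzyme is required for a stable pool of initiator tRNA, the cargo of eIF2. The libraries measure messenger RNA and say nothing of the amount of factor protein or of its phosphorylation.

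Levels are given as CPM, which are counts scaled to a common library size. Trmt61a stood at 0.530, 0.755 and 0.539 CPM in KO and at 4.96, 3.89 and 5.06 CPM in WT. The groups did not overlap, and its log2 fold change was -2.92 (SE 0.28), with an edgeR adjusted p of 0.00219. Gene counts per library ran from 37899665 to 40710502 in KO and from 37021855 to 41033179 in WT. Macrophage markers other than Lyz2 (Adgre1, Csf1r, Cd68, Itgam, Mertk, Fcgr1, Cd14 and Spi1) summed to between 10553 and 11919 CPM in KO and between 10791 and 11526 CPM in WT. Lyz2, the locus that carries Cre in KO, stood at 10769, 9253 and 8488 CPM in KO and at 18389.8, 21194 and 17037 CPM in WT, and it was lower in KO with a log2 fold change of -0.99 (SE 0.10) and an edgeR adjusted p of 0.00735. With Lyz2 the sums were between 19041 and 22688 CPM in KO and between 28074 and 32721 CPM in WT, without overlap. Summed levels of 12 neutrophil markers lay between 1640.3 and 2627 CPM in KO and between 1666 and 3022 CPM in WT. Stromal and endothelial markers summed to between 111 and 247 CPM in KO and between 109 and 167 CPM in WT, mast cell, basophil and eosinophil markers to between 24.6 and 51.8 CPM in KO and between 25.6 and 60.0 CPM in WT, and erythroid and megakaryocyte markers to between 148 and 161 CPM in KO and between 124 and 139 CPM in WT. Lymphoid and dendritic cell markers each summed to under 5 CPM in every library. No listed marker found in the table was at 0 in all libraries.

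No translation factor transcript passed the threshold between KO and WT macrophages. Of the 63 genes, 62 had enough counts to be tested, and 0 of them reached an adjusted p under 0.05 in the edgeR quasi-likelihood test, with Benjamini-Hochberg adjustment over 12605 genes. Over all tested genes 0.0317% were called, 0.00793% higher and 0.0238% lower. The edgeR adjusted p was 0.99995 for each of the 62. Eif1a alone had an unadjusted edgeR p under 0.05, which makes 1.61% of the factor genes, against 3.1% of all tested genes. DESeq2 and limma voom also called 0, with 1 factor gene each at an unadjusted p under 0.05. Log2 fold changes were above 0 for 31 factor genes and below 0 for 31, and over all tested genes 50.0% were above 0. Their median was 0.000621, against 8.37e-05 over all tested genes. In bulk RNA, fewer cells of a type and less RNA per cell cannot be told apart.

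How large a difference the data leave room for is shown by the 95% intervals of the fold change. Of the 62 genes, 49 had an interval that stayed above 0.8-fold and below its reciprocal, called narrow from here on (51.0% of all tested genes), and 59 had one within 1.5-fold in either direction (72.4%). Precision rises with abundance, and 56 of the 63 factor genes had a mean of at least 10 CPM. All 56 had an interval within 1.5-fold, where 96.1% of all tested genes of that abundance did, and 49 of them had a narrow one, where 75.8% did. For these 56 genes the log2 fold changes ran from -0.18 to 0.23, and no interval reached below 0.688-fold or above 1.31-fold. At least 317 counts stood behind each of their values. The 3 genes past 1.5-fold were Eif3j2, Eef1a2 and Eef1akmt4, each with a mean under 5 CPM.

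**Figure D1:**
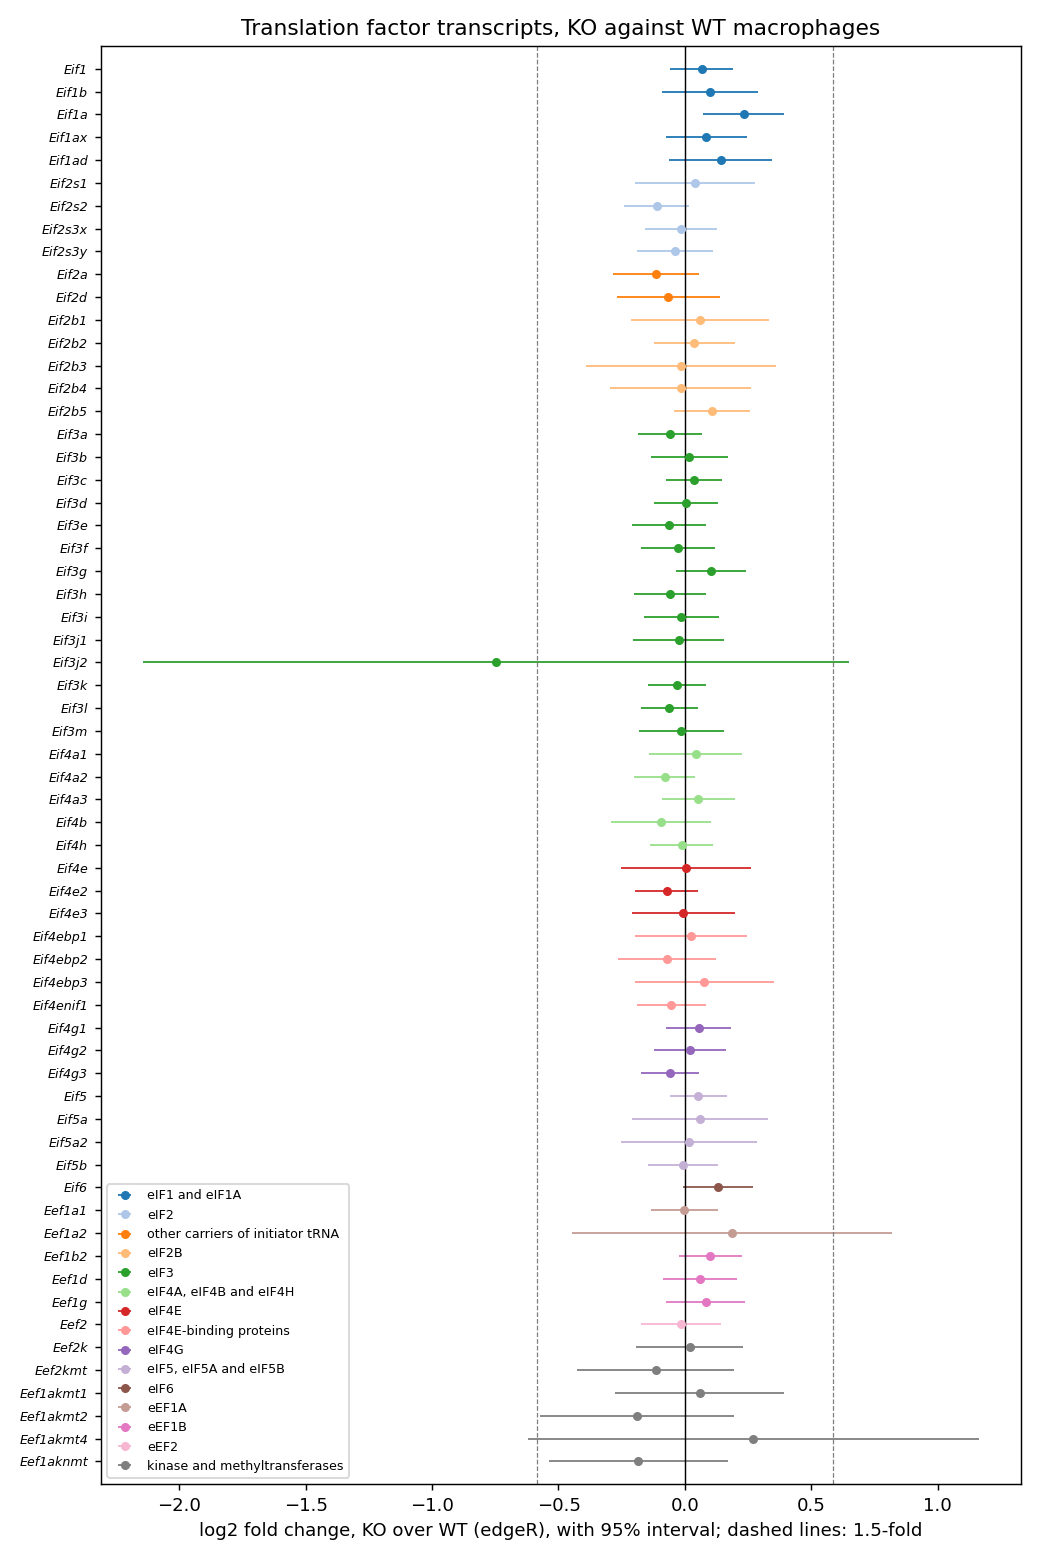
Log2 fold change of KO over WT with its 95% interval for the 62 tested translation factor genes, ordered and coloured by role; dashed lines mark 1.5-fold. All intervals but that of Eif1a cross 0, and those of Eif3j2, Eef1a2 and Eef1akmt4 reach past 1.5-fold.

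Eif1, Eif1b, Eif1a and Eif1ax encode factors that act with the small subunit in the search for the start codon, and Eif1ad encodes a relative of eIF1A. All 5 genes had positive log2 fold changes, between 0.07 and 0.23, and 0 passed. Eif1a, which encodes the autosomal form of eIF1A, stood at 68.7, 75.4 and 78.3 CPM in KO and at 59.9, 62.0 and 67.5 CPM in WT. Every KO value lay above every WT value, with KO 1 next to WT 3. The fitted fold was 1.17, with an interval from 1.05 to 1.31 and an unadjusted edgeR p of 0.00834, and it did not pass after adjustment. Eif1ax, its X-linked paralog, stood at 43.5, 43.3 and 49.3 CPM in KO and at 42.7, 42.4 and 43.2 CPM in WT. Here too the groups did not overlap, but KO 1 and KO 2 lay next to the WT values, and the log2 fold change was 0.08 (SE 0.07). The share of Eif1a in the pair, per kb of exon, was 67.0 ± 1.20% over the KO libraries against 64.6 ± 1.24% over the WT libraries (SD, n = 3 each). Eif1, which guards start codon choice, averaged 128 ± 6.18 CPM over the KO libraries against 122 ± 2.74 over the WT libraries (SD, n = 3 each). Its paralog Eif1b averaged 30.1 ± 2.50 CPM over the KO libraries against 28.1 ± 1.63 over the WT libraries (SD, n = 3 each). Eif1ad had a log2 fold change of 0.14 (SE 0.09).

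Groups without overlap were seen for 8 of the 62 factor genes, or 12.9%, where 8.65% of all tested genes had none. In 6 of them all KO values were above all WT values (4.05% of all tested genes), namely Eif1a, Eif1ax, Eif2b5, Eif3c, Eif3g and Eif6. In the other 2, Eif2s2 and Eif3l, all KO values were below (4.59%). With 3 against 3 libraries the exact two-sided permutation test cannot give a p under 0.1, so the separation is a description.

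The eIF2 complex, which carries initiator tRNA as a ternary complex with GTP, had no subunit past the threshold. Eif2s2, the beta subunit, lies at chr2:154871410-154892906 (GRCm38.p6) and stood at 100.3, 94.7 and 98.7 CPM in KO and at 107, 109.9 and 101 CPM in WT. All KO values were lower, the nearest pair being KO 1 and WT 3, and the log2 fold change was -0.11 (SE 0.06), with an interval from -0.24 to 0.02. Eif2s1, the alpha subunit whose phosphorylation lowers initiation under stress, stood at 70.2, 71.0 and 88.9 CPM in KO and at 75.5, 66.8 and 81.6 CPM in WT. Replicate 3 was the highest in each genotype and the groups overlapped, with a log2 fold change of 0.04 (SE 0.11). The gamma subunit, which holds GTP and the tRNA, is encoded on both sex chromosomes in mice. Eif2s3x averaged 63.5 ± 1.68 CPM over the KO libraries against 64.1 ± 3.43 over the WT libraries (SD, n = 3 each). Y-linked Eif2s3y averaged 72.3 ± 3.34 CPM over the KO libraries against 74.4 ± 4.83 over the WT libraries (SD, n = 3 each), with at least 2546 counts in every library. The share of Eif2s3y in both copies, per kb of exon, was 69.8 ± 1.39% over the KO libraries against 70.1 ± 0.555% over the WT libraries (SD, n = 3 each). Reads that match both copies cannot be assigned with certainty, so this share is uncertain.

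The 5 subunits of eIF2B, the exchange factor that reloads eIF2 with GTP, had log2 fold changes between -0.02 and 0.11. Eif2b5, the catalytic epsilon subunit, stood at 42.4, 40.5 and 41.0 CPM in KO and at 39.1, 36.5 and 39.5 CPM in WT. The KO values were all higher, and the log2 fold change was 0.11 (SE 0.07). Eif2b1, the regulatory alpha subunit, averaged 18.5 ± 1.20 CPM over the KO libraries against 17.7 ± 2.99 over the WT libraries (SD, n = 3 each). Its beta, gamma and delta partners Eif2b2, Eif2b3 and Eif2b4 had log2 fold changes of 0.04 (SE 0.07), -0.02 (SE 0.17) and -0.02 (SE 0.13). Eif2a and Eif2d, which encode factors able to deliver initiator or other tRNAs to the ribosome without eIF2, had -0.11 (SE 0.08) and -0.07 (SE 0.09) on the log2 scale.

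All but 1 of the 14 eIF3 genes had a narrow interval, and 0 passed. Their median log2 fold change was -0.03, with 4 above 0 and 10 below. Eif3a, the largest scaffold subunit, averaged 523 ± 7.82 CPM over the KO libraries against 545 ± 27.8 over the WT libraries (SD, n = 3 each). Eif3c, another core subunit, stood at 273, 278 and 276 CPM in KO and at 265, 272 and 268 CPM in WT. The groups did not overlap, but KO 1 and WT 2 differed by less than 1 CPM and the log2 fold change was 0.04 (SE 0.05). Eif3g, an RNA-binding subunit, stood at 44.4, 44.7 and 45.9 CPM in KO and at 42.3, 41.6 and 41.9 CPM in WT, with KO higher throughout and a log2 fold change of 0.10 (SE 0.06). Eif3l, a peripheral subunit, stood at 126, 132 and 127 CPM in KO and at 135, 135 and 133 CPM in WT, with KO lower throughout and a log2 fold change of -0.06 (SE 0.05). The other core and peripheral subunits Eif3b, Eif3d, Eif3e, Eif3f, Eif3h, Eif3i, Eif3k and Eif3m had log2 fold changes between -0.06 and 0.02.

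Eif3j encodes a loosely attached subunit that acts in the decoding centre and is present in mice as a pair of close copies. Eif3j1 averaged 35.0 ± 2.02 CPM over the KO libraries against 35.6 ± 2.80 over the WT libraries (SD, n = 3 each). Eif3j2 stood at 0.557, 2.80 and 1.54 CPM in KO and at 1.27, 2.84 and 4.12 CPM in WT. Its values rested on 21, 111 and 63 counts in KO and 47, 113 and 169 counts in WT, and the groups overlapped. The log2 fold change of -0.75 (SE 0.60) was the largest in size among the tested factor genes and came with the widest interval. Whether the counting divided reads between the copies was not tested, so the level of Eif3j2 is uncertain.

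The helicase eIF4A unwinds the 5′ end of the messenger RNA, with eIF4B and eIF4H as its cofactors. Eif4a1 stood at 445, 516 and 551 CPM in KO and at 486, 458 and 525 CPM in WT. KO 1 was the lowest in KO, WT 2 the lowest in WT and replicate 3 the highest in each, so the groups overlapped, with a log2 fold change of 0.04 (SE 0.08). Its paralog Eif4a2 averaged 156 ± 4.41 CPM over the KO libraries against 165 ± 6.37 over the WT libraries (SD, n = 3 each). Eif4a1 as a share of the pair, per kb, was 85.2 ± 1.75% over the KO libraries against 84.2 ± 1.42% over the WT libraries (SD, n = 3 each). Eif4a3, which sits in the exon junction complex rather than in eIF4F, averaged 66.0 ± 2.29 CPM over the KO libraries against 63.6 ± 3.53 over the WT libraries (SD, n = 3 each). Eif4b stood at 588, 532 and 507 CPM in KO and at 571, 651 and 514 CPM in WT, highest in KO 1 and in WT 2, and its log2 fold change was -0.09 (SE 0.09). Eif4h averaged 253 ± 10.7 CPM over the KO libraries against 255 ± 9.43 over the WT libraries (SD, n = 3 each).

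**Figure D2:**
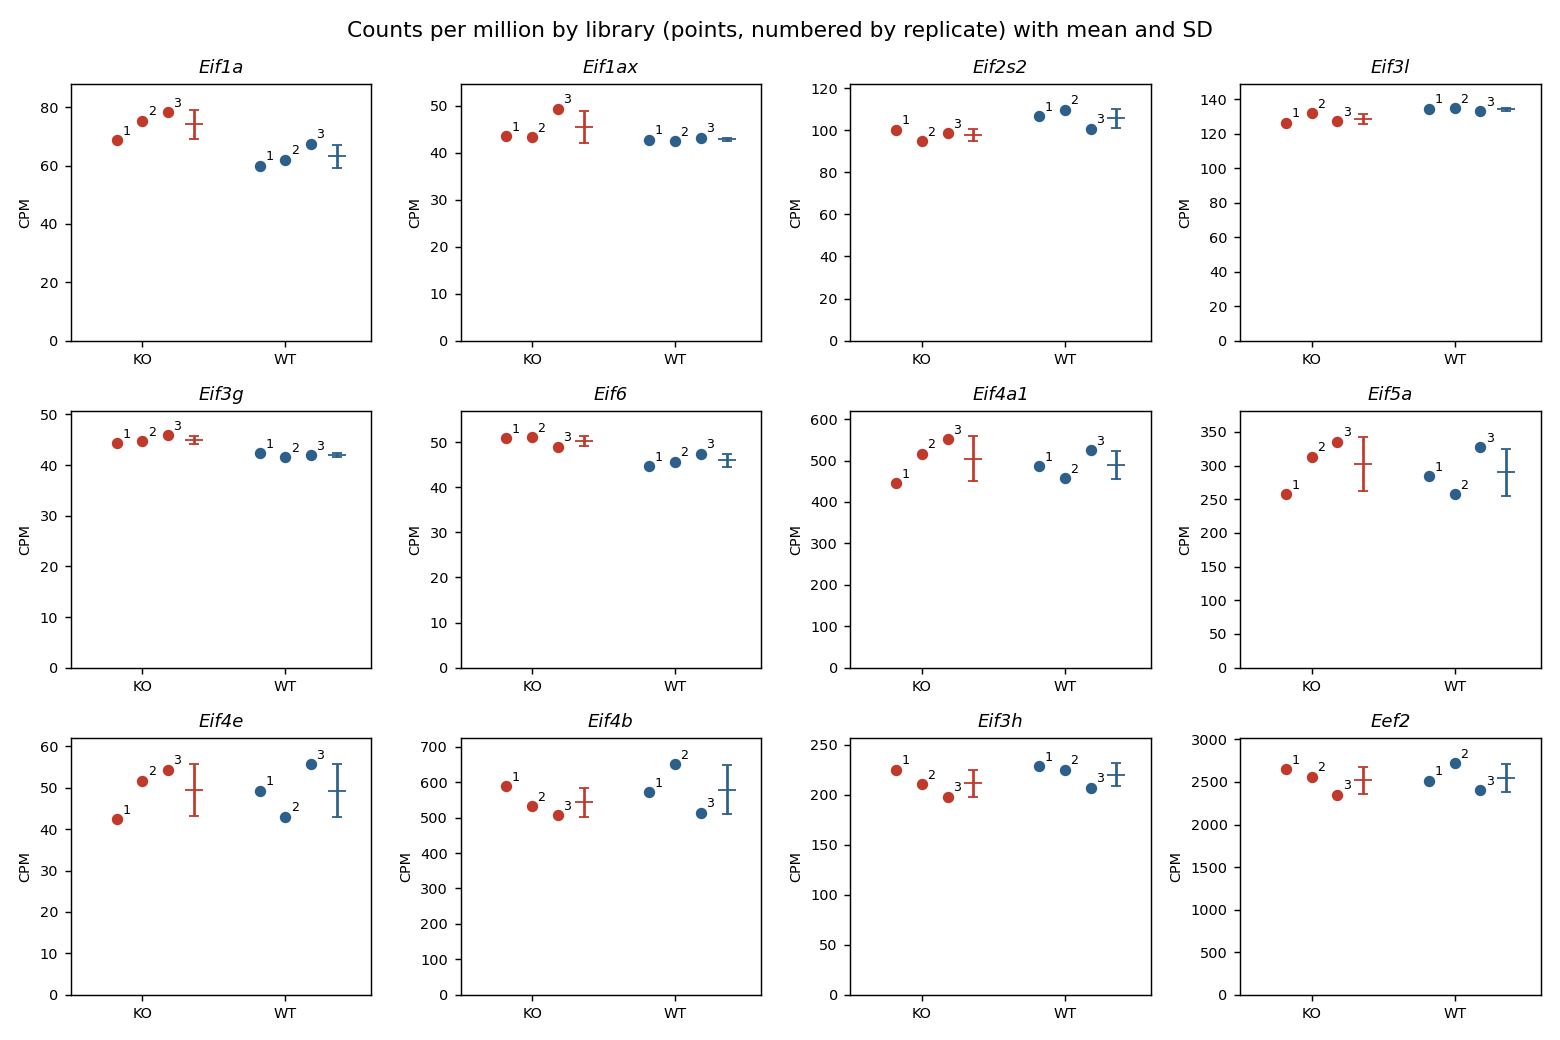
CPM of 12 translation factor genes in each library (points, numbered by replicate), with mean and SD beside each genotype and the vertical axis from 0. KO and WT do not overlap in the first 6 panels, where the differences are small, and overlap in the last 6.

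The cap-binding protein eIF4E is encoded by Eif4e, which stood at 42.4, 51.6 and 54.3 CPM in KO and at 49.3, 42.9 and 55.6 CPM in WT. The values were again lowest in KO 1 and in WT 2, and the fold interval ran from 0.839 to 1.20. Eif4e2, which binds caps but represses translation, averaged 97.4 ± 2.59 CPM over the KO libraries against 102 ± 3.18 over the WT libraries (SD, n = 3 each). Eif4e3, an atypical cap-binding relative, averaged 30.7 ± 3.32 CPM over the KO libraries against 30.8 ± 1.74 over the WT libraries (SD, n = 3 each). The eIF4E-binding proteins block eIF4F assembly until mTORC1 phosphorylates them, and 0 of their genes passed. Eif4ebp1 stood at 40.2, 42.9 and 42.9 CPM in KO and at 44.4, 45.1 and 34.3 CPM in WT, where WT 3 was the lowest of the 6. Eif4ebp2 averaged 153 ± 9.58 CPM over the KO libraries against 161 ± 19.8 over the WT libraries (SD, n = 3 each). Eif4ebp3 averaged 12.4 ± 1.20 CPM over the KO libraries against 11.8 ± 0.992 over the WT libraries (SD, n = 3 each), and 67.3% of its exon bases are also annotated to another gene. Eif4enif1, which carries eIF4E into the nucleus, had a log2 fold change of -0.05 (SE 0.06).

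The scaffold eIF4G links eIF4E, eIF4A and eIF3. Eif4g1 averaged 474 ± 14.4 CPM over the KO libraries against 456 ± 21.5 over the WT libraries (SD, n = 3 each). Its relative Eif4g3 averaged 260.04 ± 7.17 CPM over the KO libraries against 271 ± 5.01 over the WT libraries (SD, n = 3 each). Eif4g2, which lacks the eIF4E-binding region, averaged 797 ± 27.0 CPM over the KO libraries against 786 ± 51.0 over the WT libraries (SD, n = 3 each). Eif4g2 as a share of the 3 genes, per kb, was 48.9 ± 0.893% over the KO libraries against 49.0 ± 1.35% over the WT libraries (SD, n = 3 each). The log2 fold changes of Eif4g1, Eif4g2 and Eif4g3 were 0.05 (SE 0.06), 0.02 (SE 0.06) and -0.06 (SE 0.05).

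Of the 5 genes of eIF5, eIF5A, eIF5B and eIF6, 0 passed. Eif5, which triggers GTP hydrolysis by eIF2, averaged 179.5 ± 3.59 CPM over the KO libraries against 173 ± 4.03 over the WT libraries (SD, n = 3 each). Eif5b, which joins the subunits, averaged 217 ± 11.7 CPM over the KO libraries against 218 ± 11.6 over the WT libraries (SD, n = 3 each). Eif5a, the hypusine-bearing factor that relieves stalled ribosomes, stood at 257, 313 and 335 CPM in KO and at 284, 258 and 327 CPM in WT. KO 1 and WT 2 were the lowest of their genotypes, and the log2 fold change was 0.06 (SE 0.12). Its paralog Eif5a2 averaged 18.9 ± 2.84 CPM over the KO libraries against 18.7 ± 1.71 over the WT libraries (SD, n = 3 each). Eif5a as a share of the pair, per kb, was 97.1 ± 0.829% over the KO libraries against 97.0 ± 0.609% over the WT libraries (SD, n = 3 each). Eif6, which keeps free large subunits from joining, lies at chr2:155819837-155826925 (GRCm38.p6) and stood at 50.8, 51.0 and 49.0 CPM in KO and at 44.6, 45.7 and 47.5 CPM in WT. All KO values were above all WT values. The log2 fold change was 0.13 (SE 0.06), with an unadjusted edgeR p of 0.0639 and an interval from -0.01 to 0.27.

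For elongation, Eef1a1, which delivers aminoacyl-tRNAs, stood at 6909, 6899.6 and 6625 CPM in KO and at 6772, 6962 and 6735 CPM in WT. The groups overlapped, and the interval of the fold ran from 0.911 to 1.09. Eef1a2, the form typical of muscle and neurons, averaged 3.14 ± 0.868 CPM over the KO libraries against 2.77 ± 0.635 over the WT libraries (SD, n = 3 each). The 3 subunits of the exchange factor eEF1B had log2 fold changes above 0, and 0 passed. Eef1b2 averaged 180.1 ± 5.98 CPM over the KO libraries against 168 ± 7.24 over the WT libraries (SD, n = 3 each), and its log2 fold change was 0.10 (SE 0.06). Eef1d and Eef1g had 0.06 (SE 0.07) and 0.08 (SE 0.07), and Eef1d had -0.02 when KO 1 and WT 2 were left out together. Eef2, the translocase, stood at 2653, 2560.4 and 2347 CPM in KO and at 2514, 2723 and 2405 CPM in WT, with a log2 fold change of -0.02 (SE 0.07). Eef2k, the kinase that inhibits eEF2, averaged 55.7 ± 7.47 CPM over the KO libraries against 54.9 ± 3.65 over the WT libraries (SD, n = 3 each).

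The methyltransferases of the elongation factors had low levels. Eef2kmt, which methylates eEF2, averaged 11.5 ± 0.597 CPM over the KO libraries against 12.4 ± 2.11 over the WT libraries (SD, n = 3 each). Eef1aknmt, which methylates the N terminus and a lysine of eEF1A, averaged 9.67 ± 0.643 CPM over the KO libraries against 11.0 ± 2.29 over the WT libraries (SD, n = 3 each). The lysine methyltransferases Eef1akmt1, Eef1akmt2 and Eef1akmt4 had log2 fold changes of 0.06 (SE 0.15), -0.19 (SE 0.18) and 0.27 (SE 0.41). Eef1akmt3 was not tested, with 1, 1 and 4 counts in KO and 4, 0 and 0 counts in WT, where 3 counts correspond to between 0.0730 and 0.0813 CPM.

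Levels of the 62 tested genes spanned a 4571-fold range once divided by exon length. In CPM per kb, Eef1a1 stood at 3797 ± 90.1 over the KO libraries against 3803 ± 67.7 over the WT libraries (SD, n = 3 each). On the same scale Eef2 stood at 816 ± 50.7 over the KO libraries against 825 ± 52.4 over the WT libraries (SD, n = 3 each). Of all factor gene counts, both together took between 53.2 and 55.3% in KO and between 53.8 and 55.4% in WT. Of all gene counts, the whole family took between 1.69 and 1.73% in KO and between 1.70 and 1.75% in WT. Next in CPM per kb, Eif4a1 stood at 284 ± 30.3 over the KO libraries against 276 ± 19.1 over the WT libraries (SD, n = 3 each). After it, Eif3h stood at 163 ± 10.4 over the KO libraries against 169.96 ± 8.96 over the WT libraries (SD, n = 3 each), also in CPM per kb. Subunits of 1 complex had unequal levels. In eIF3 the mean over the 6 libraries ran from 6.53 CPM per kb for Eif3j1 to 167 for Eif3h, leaving out Eif3j2. In eIF2B it ran from 1.79 CPM per kb for Eif2b3 to 20.6 for Eif2b2. Eif4e had a mean of 9.63 CPM per kb over the 6 libraries, against 20.8 for Eif4ebp1. Exon length was the union of annotated exons, so a gene with a long but little used 3′ end reads too low.

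**Figure D3:**
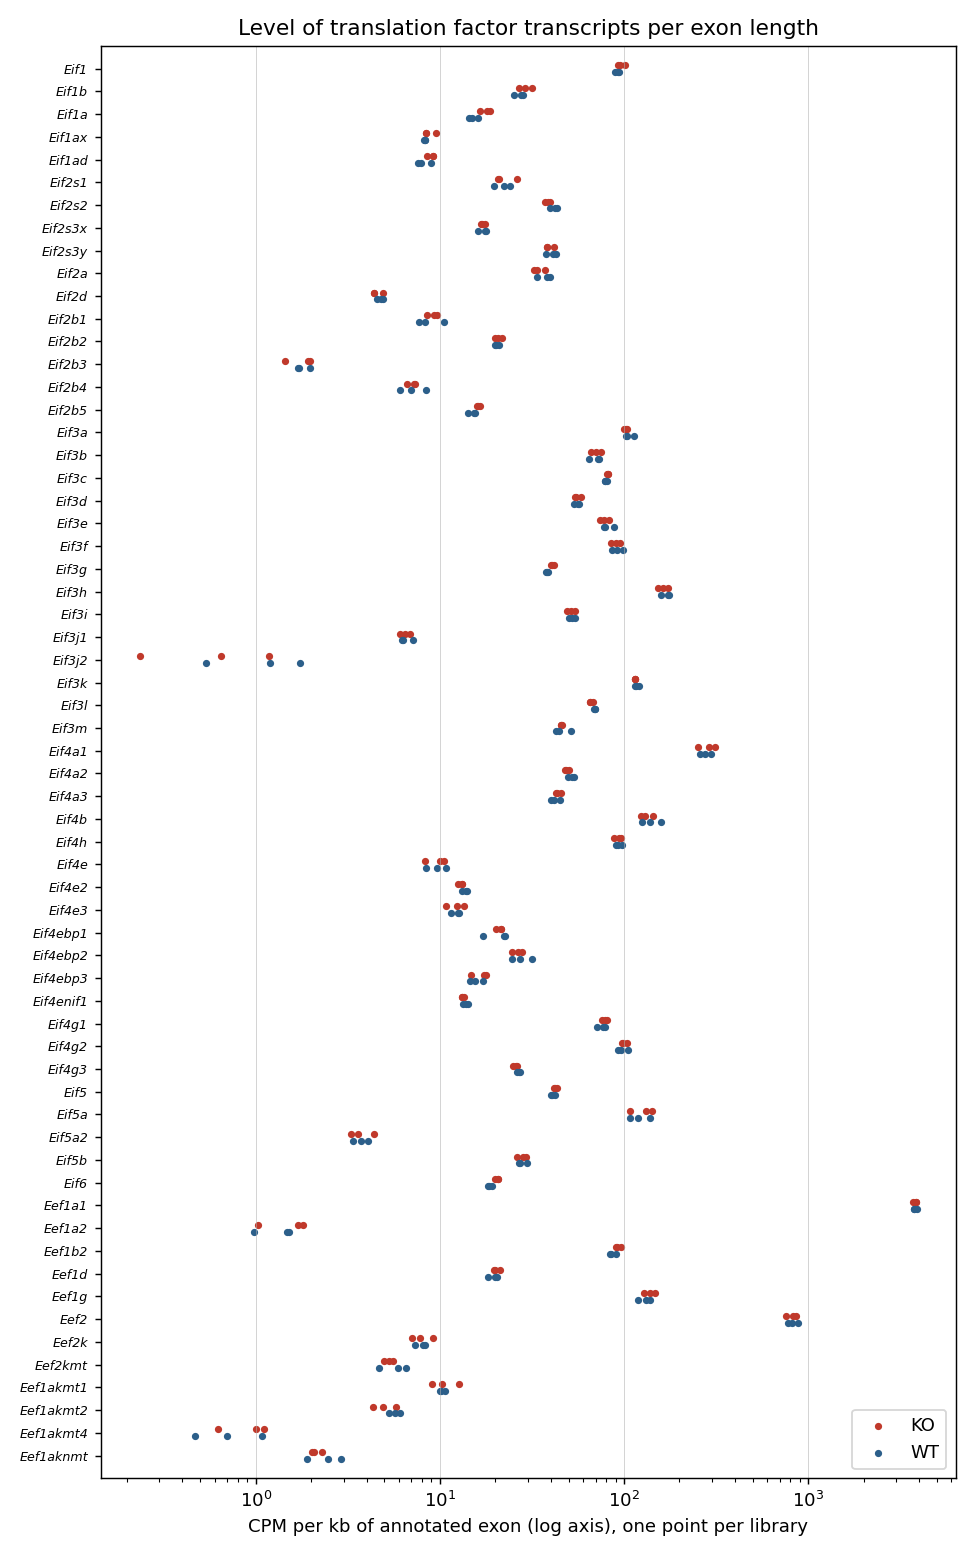
CPM per kb of annotated exon on a log axis for the 62 tested genes, with 1 point per library, KO drawn above WT in each row. KO and WT points lie close for most genes, and Eef1a1 and Eef2 stand above the rest.

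Libraries of a genotype also differed among themselves. For the 56 genes of at least 10 CPM, the coefficient of variation over the 6 libraries had a median of 5.59%, against 6.68% for all genes of that abundance. Part of this spread was seen in TOP messenger RNAs, which begin with a tract of pyrimidines at the 5′ end and whose translation depends on mTORC1. A list of 10 factor genes known for such transcripts was used. The RefSeq table of start regions (GRCm38.p6, the assembly of mm10) held entries for 48 of the 63 factor genes and for 6 of the listed TOP genes. The windows of those 6 were searched for the tract that defines the class. The 15 bases before and the 15 bases from the annotated start are printed 5′ to 3′. The longest run of C and T, or the first of equally long ones, is in capitals, whether or not it is such a tract.
Eef1a1 (chr9:78481710-78481739, minus strand): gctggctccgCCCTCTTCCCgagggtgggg
Eef1b2 (chr1:63176816-63176845, plus strand): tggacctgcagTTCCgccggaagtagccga
Eef2 (chr10:81176616-81176645, plus strand): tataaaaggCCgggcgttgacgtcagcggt
Eif2s3x (chrX:94212637-94212666, minus strand): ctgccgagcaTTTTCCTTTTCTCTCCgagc
Eif3f (chr7:108934400-108934429, plus strand): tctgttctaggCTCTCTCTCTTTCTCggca
Eif4b (chr15:102073758-102073787, plus strand): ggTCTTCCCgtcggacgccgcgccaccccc

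A run of at least 8 C or T, read on the printed strand, was present in 3 of these 6 windows, in 11 of the 48 factor genes with an entry and in 13.9% of all 27025 genes with one. In Eef1a1, Eif2s3x and Eif3f the run crossed the annotated start, and it was 10, 16 and 15 bases long. In Eef1b2 and Eif4b the longest run was 4 and 7 bases long and lay wholly before the annotated start. In Eef2 no run was longer than 2 bases, and runs of that length lay on both sides of the annotated start. Annotated starts need not be the starts used in macrophages, and a window without a run says only that these letters are not in it.

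Of the 10 TOP transcripts 0 passed between genotypes. Their median log2 fold change was -0.02, with 3 above 0 and 7 below, and all 10 had a narrow interval. Relative to the mean of the 6 libraries, their median log2 CPM deviated by 0.06, -0.00348 and -0.04 in KO 1, KO 2 and KO 3 and by -0.00930, 0.05 and -0.04 in WT 1, WT 2 and WT 3. KO 1 held the highest KO value for 8 of the 10 (4669 of all 12605 tested genes), and KO 3 the lowest for 7 (4250). WT 2 held the highest WT value for 6 of the 10 (4418 of all 12605), and WT 3 the lowest for 7 (4379). Eef2 and Eif4b followed this order, as given above. Among those that did not were Eef1g, Eif2s3x and, in WT, Eef1d. Eef1g stood at 238, 257 and 274 CPM in KO and at 246, 223 and 257 CPM in WT. Eif2s3x, which has the longest run of the 6 windows, stood at 62.1, 62.9 and 65.3 CPM in KO and at 60.2, 65.6 and 66.6 CPM in WT. In both, KO 1 was the lowest KO library and KO 3 the highest, and WT 3 was the highest WT library. Eef1d stood at 75.1, 70.1 and 69.4 CPM in KO and at 69.8, 64.5 and 71.5 CPM in WT, with KO 1 the highest in KO and WT 2 the lowest in WT. For the 52 other tested factor genes the median deviations lay between -0.02 and 0.02. Among these 52, WT 2 also held the highest WT value most often, for 23 (44.2%, against 35.0% of all tested genes). KO 1 held their highest KO value for 18 (34.6%, against 37.0%).

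KO 1 and WT 2 also stood apart in the marker lists of several cell types. Cell cycle markers were lowest there as a list. Each was lowest in KO 1, and all but Ccnb1 and Birc5, which were lowest in WT 1, were lowest in WT 2. The median log2 CPM of the 17 cell cycle genes deviated by -0.50, 0.17 and 0.42 in KO 1, KO 2 and KO 3 and by -0.05, -0.43 and 0.40 in WT 1, WT 2 and WT 3. Summed levels ran from 677 to 1079.9 CPM in KO and from 634 to 1047 CPM in WT, and 0 of them passed between genotypes. Neutrophil markers summed to 1640.3, 2582 and 2627 CPM in KO 1, KO 2 and KO 3 and to 2132, 1666 and 3022 CPM in WT 1, WT 2 and WT 3. Of these, Mmp8 and Retnlg were lowest in WT 1 and not in WT 2, and Ly6g was lowest in KO 3 and not in KO 1. The other neutrophil markers were lowest in KO 1 and WT 2. Stromal and endothelial markers summed to 111, 247 and 209 CPM in KO 1, KO 2 and KO 3 and to 162, 109 and 167 CPM in WT 1, WT 2 and WT 3, and mast cell, basophil and eosinophil markers to 24.6, 48.7 and 51.8 CPM in KO 1, KO 2 and KO 3 and to 30.9, 25.6 and 60.0 CPM in WT 1, WT 2 and WT 3. In the mast cell, basophil and eosinophil list, Prg2 had the highest level, and Prg2, Epx and Kit were lowest in KO 1 and WT 2. Cpa3, Mcpt8, Ms4a2, Gata2 and Prss34, at low levels, were lowest in WT 1 and not in WT 2. Of these, Gata2 was highest in KO 1, and Ms4a2 was lowest in KO 3. In the stromal and endothelial list, Col1a1 and Col1a2 had the highest levels. They were lowest in KO 1 and WT 2, as were Dcn and Pdgfrb. Col3a1, Lum and Pdgfra were lowest in KO 1 but not in WT 2. The endothelial markers did not share the pattern. Kdr was highest in KO 1 and lowest in WT 1, Cdh5 was lowest in KO 1 and WT 3, and Pecam1 in KO 2 and WT 2. Lymphoid markers, at low levels, also had their lowest sums in KO 1 and in WT 2. The sum of macrophage markers other than Lyz2 was highest in both. It stood at 11919, 10949 and 10553 CPM in KO 1, KO 2 and KO 3. In WT 1, WT 2 and WT 3 it stood at 10791, 11526 and 11037 CPM. Csf1r, Itgam, Mertk and Cd14 were highest in KO 1 and in WT 2, like the sum. Cd68 and Fcgr1 went the other way and were lowest in both. Adgre1 was highest in KO 1 and WT 3, and Spi1 in KO 2 and WT 3. The part of any of these cell types in the TOP pattern was not tested. Eif4a1, Eif4e and Eif5a were lowest in KO 1 and in WT 2, as given above, but the factor genes outside the TOP list were not so as a whole. KO 1 held the lowest KO value for 23 of these 52 genes (44.2%, against 37.8% of all tested genes), and WT 2 the lowest WT value for 20 (38.5%, against 36.2%). Without KO 1 and WT 2, a choice made after seeing the data, 0 factor genes passed, and their median log2 fold change was 0.00833.

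**Figure D4:**
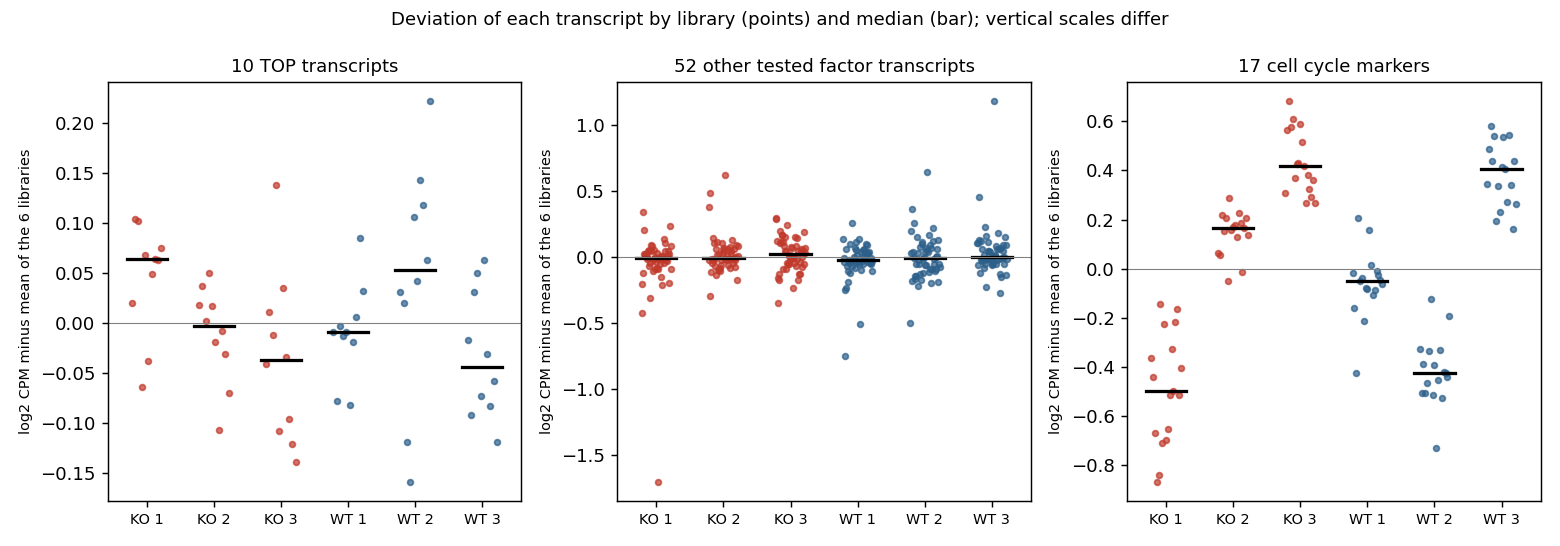
Log2 CPM of each transcript minus its mean over the 6 libraries, for 10 TOP transcripts, the 52 other tested factor transcripts and 17 cell cycle markers, with bars at the medians and different vertical scales. TOP medians are above 0 in KO 1 and WT 2, where cell cycle medians are lowest. Summed levels of neutrophil, stromal and endothelial, and mast cell, basophil and eosinophil markers, not drawn, were also lowest in those libraries. Not every gene of these lists followed its sum.

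Among 63 other genes of the translation pathway, 0 passed in edgeR, 0 had an unadjusted p under 0.05, and 28 were above 0. The 6 termination and recycling factors had a median log2 fold change of 0.0012. Gspt2, a copy of the release factor eRF3, and Hbs1l, a rescue factor, had -0.23 (SE 0.18) and -0.09 (SE 0.07). The 5 poly(A)-binding proteins and regulators had a median of -0.05. Pabpc1, which circularises messenger RNA through eIF4G, stood at 856, 905 and 895 CPM in KO and at 928, 919 and 934 CPM in WT. Its KO values were all lower, and the log2 fold change was -0.07 (SE 0.06). Paip2, which inhibits Pabpc1, had -0.07 (SE 0.06). The 12 accessory initiation and rescue factors had a median of -0.02. Mcts2 averaged 0.626 ± 0.306 CPM over the KO libraries against 0.925 ± 0.160 over the WT libraries (SD, n = 3 each), and Efl1, which releases eIF6 from the large subunit, had a log2 fold change of -0.10 (SE 0.10).

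The 9 eIF2 alpha kinases and phosphatase subunits had a median log2 fold change of -0.02, and all had narrow intervals. Eif2ak2, the kinase activated by double-stranded RNA, averaged 86.6 ± 5.34 CPM over the KO libraries against 90.3 ± 3.06 over the WT libraries (SD, n = 3 each). Ppp1ca, a catalytic subunit of the phosphatase, averaged 321 ± 5.80 CPM over the KO libraries against 331 ± 7.72 over the WT libraries (SD, n = 3 each). The 12 mTORC1 and MAPK regulators had a median of 0.0044, also with narrow intervals throughout. Tsc2, which restrains mTORC1, had -0.06 (SE 0.06), and Rptor, a subunit of mTORC1, had -0.05 (SE 0.07). The 9 genes of hypusine and diphthamide synthesis, the modifications of eIF5A and eEF2, had a median of 0.09. Dnajc24, which acts in diphthamide synthesis, stood at 5.83, 6.95 and 5.997 CPM in KO and at 9.95, 6.08 and 8.62 CPM in WT. KO 2 lay above WT 2, and the log2 fold change was -0.39 (SE 0.19). Dph2, of the same pathway, had 0.23 (SE 0.17). The 10 mitochondrial translation factors had a median of 0.01. Mtif3, the mitochondrial initiation factor, stood at 13.2, 14.0 and 13.5 CPM in KO and at 15.6, 14.8 and 16.5 CPM in WT. KO was lower throughout, and the log2 fold change was -0.21 (SE 0.10). Tsfm, the exchange factor of mitochondrial EF-Tu, had -0.24 (SE 0.18).

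Overlapping annotation limits a few of these values. Exons of 19 factor genes shared bases with another gene on either strand, and in 8 the share was over 10%. Of Eif3d exon bases 32.9% are shared with an antisense gene, and other genes share 31.7% of Eef1akmt4 and 28.3% of Eef2kmt. Without a known strand setting, reads in those stretches cannot be divided.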

How the data were processed

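RNA was extracted with TRIzol, and libraries were made with a VAHTS Universal V6 kit, both per the labels' protocols. What the authors deposited is 1 table of raw counts, with a row per gene and a column per library (6 in all). The submitters' processing notes name fastp, HISAT2, HTSeq and the build mm10; no version, annotation, strand setting or gene filter is given in the sources used. The group, KO or WT, and the replicate number came from the sample titles.

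The test was edgeR 4.0.16 (R 4.3.3) with TMM factors, filterByExpr (minimum count 10), robust quasi-likelihood fits and the F test of KO minus WT over 12605 genes, Benjamini-Hochberg adjusted, called under 0.05. CPM use TMM-scaled library sizes. SE is the absolute log2 fold change over the square root of F. The steps were tested on simulated data. Replicate pairs differed by more than sampling noise (chi-square per degree of freedom from 11.4 to 34.2), so each library counted once. Intervals are at 95%; limits from 3 counts cover counting error only.

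Exon lengths are unions of GENCODE M21 basic exons, matched by Entrez Gene ID for all 63 genes. Start regions and coordinates come from RefSeq, GRCm38.p6. The members and lists were chosen with earlier results of these data known. Of the listed macrophage markers, 1 is not reported here and was left out of the summed level. Genes were named by rule: Trmt61a; called or non-overlapping members; in each role group the most abundant per length, the 3 with the smallest p and the largest fold; subunits of the complexes; paralog pairs; and, of each pathway list, 2 with the smallest p. Other factor genes were named to account for every member. Alternatives were other scalings, count filters and tests (DESeq2 1.42.0, limma 3.58.1 voom), a replicate block, no robust estimation and leaving out libraries.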

Additional observations from a re-analysis of the deposited data

How the results depend on the processing

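No factor gene passed under any of 16 alternatives, of which 15 were planned and 1, leaving out KO 1 and WT 2 together, was added after seeing the data. The number of genes called over all tested genes was 4. It was 17 with DESeq2, which differed in both the test and the genes entered (16519, without the count filter), against 6 for edgeR without that filter. It was 8 with the replicate block, 6 without KO 1 and WT 2, and between 3 and 5 when single libraries were left out. Pairing by replicate number was not seen throughout. Same-numbered deviations correlated at 0.04, -0.22 and 0.44, and not every library correlated best with its own number. KO 3 correlated best with WT 3, but KO 1 correlated best with WT 2, at 0.50. With 3 libraries per genotype these correlations cannot decide whether libraries were prepared in pairs. With the block 0 factor genes passed. The median log2 fold change of the factor genes ran from -0.0143 to 0.0218 when single libraries were left out. Above 0 were between 29 and 34 genes when single libraries were left out. Of the 62 factor genes, 36 kept 1 sign under all alternatives and 26 did not; the size of the log2 fold change of those 26 was at most 0.07. Eif1a stayed positive, from 0.19 to 0.28, with adjusted p of at least 0.645. For genes of at least 10 CPM the largest shift was 0.15. Low counts limit Eef1akmt3, Eef1akmt4 and Eef1a2. Eif3j2, at 21 to 169 counts, had a wider spread between libraries (coefficient of variation 59.3%) than Eef1akmt4 at 28 to 72 counts (32.4%).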
